A study of Homo sapiens with 6 samples.

Results

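The genes described here are 48 interferon-stimulated genes outside the IFIT and OAS families, picked by symbol from the 42307 genes of the deposited tables. The rule uses no measured value, although the list was drawn up with earlier results of these data known. Each symbol occurred in the tables, and all 48 genes passed the filter on low counts. RNA was sequenced from U251, an established human glioblastoma cell line with the genotype given as WT, grown in DMEM with fetal bovine serum. One group (NC, 3 libraries) carried a negative control plasmid and the other (STING-OE, 3 libraries) a plasmid for STING overexpression, each at 1 ug per well and each for 3 days. Both groups were therefore transfected with plasmid DNA, and no untransfected cells were analysed here. The overexpression was transient, and all values come from 1 cell line. No label says that replicates were separate cultures, and p-values therefore reflect only the spread among these samples, which could be technical. The comparison asked how the level of each gene differed between STING plasmid and control plasmid.

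STING is an adaptor of the endoplasmic reticulum that receives the signal of the DNA sensor cGAS and passes it to the kinase TBK1 and the transcription factor IRF3, which can switch on interferon genes. Secreted type I interferon acts through its receptor, the JAK kinases and a complex that contains STAT2 and IRF9 and binds interferon-stimulated response elements (ISRE) in promoters. The genes switched on in this way encode RNA sensors, the ubiquitin-like ISG15 system, effectors that block steps of viral replication, and regulators that feed back on interferon signalling. Many of them are also transcribed at a low, steady level without added interferon.

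By gene annotation in the deposited tables, 30 of the 48 genes (62.5%) carried the term defense response to virus, against 1.02% of the 21679 tested genes. The term type I interferon signaling pathway was given for 18 genes (37.5%), against 0.24% of tested genes. The genes lie on 16 chromosomes, and 18 of them lie within 100 kb of another of the 48. These neighbours are IFI44L and IFI44; GBP3, GBP1 and GBP2; IFITM2, IFITM1 and IFITM3; CMPK2 and RSAD2; MX2 and MX1; PARP9 and DTX3L; HERC6 and HERC5; and SAMD9 and SAMD9L.

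Promoter sequences were found for 38 of the 48 genes in a RefSeq table of build GRCh38.p14, which gives 250 bases before and 50 bases after each gene's start (DDX58 is listed there as RIGI). No entry was matched for USP18, HSH2D, DHX58, MX2, TRIM22, IRF7, GBP2, IFITM2, ZBP1 and PML. Each window was searched on both strands for the core letters of the ISRE, GAAA followed after any 2 bases by GAAA again, and overlapping matches were counted apart. The motif was found in 24 of the 38 windows (63.2%), against 3.57% of all 35116 promoters of the same length, and 11 of the 38 held at least 2 matches. The letters TTCNNNGAA of the GAS element, known from promoters that respond to interferon-gamma, were in 9 of the 38 windows (23.7%), against 7.66% of all promoters. A match is a description of the letters and not of a bound site. The stretches below show the element in the promoters of 5 of the 6 most abundant genes (ISG15, IFI6, LGALS3BP, BST2 and IFITM3), of the gene whose libraries lay lower with the STING plasmid (IFI27) and of 3 genes whose libraries lay higher (IFIH1, HERC5 and GBP1). All are printed 5′ to 3′ on the gene's own strand and lie upstream of the RefSeq start, and capitals mark 1 match to the motif, which in HERC5 and GBP1 reads on the opposite strand.
ISG15: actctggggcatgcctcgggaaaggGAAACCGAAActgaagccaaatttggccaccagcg
IFI6: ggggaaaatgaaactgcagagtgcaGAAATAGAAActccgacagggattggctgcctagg
LGALS3BP: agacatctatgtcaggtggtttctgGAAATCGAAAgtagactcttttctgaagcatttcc
BST2: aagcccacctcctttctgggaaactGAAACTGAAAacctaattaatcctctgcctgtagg
IFITM3: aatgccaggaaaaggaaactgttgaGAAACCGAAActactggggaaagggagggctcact
IFI27: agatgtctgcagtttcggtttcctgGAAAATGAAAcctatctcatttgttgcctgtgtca
IFIH1: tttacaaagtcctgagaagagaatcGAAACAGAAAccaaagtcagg
HERC5: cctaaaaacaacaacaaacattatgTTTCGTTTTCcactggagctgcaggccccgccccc
GBP1: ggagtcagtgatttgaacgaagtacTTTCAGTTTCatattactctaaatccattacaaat
The build is GRCh38.p14, and the positions are chr1:1013365-1013424 (ISG15, plus strand), chr1:27672251-27672310 (IFI6, minus strand), chr17:78979947-78980006 (LGALS3BP, minus strand), chr19:17405720-17405779 (BST2, minus strand), chr11:320861-320920 (IFITM3, minus strand), chr14:94110616-94110675 (IFI27, plus strand), chr2:162318685-162318730 (IFIH1, minus strand), chr4:88457020-88457079 (HERC5, plus strand) and chr1:89065301-89065360 (GBP1, minus strand). The median log2 fold change with the STING plasmid was 0.11 for the 24 genes with the motif and 0.15 for the 14 without it. The stretches were taken only from windows with a match. Of other genes whose libraries lay higher, SP110, CMPK2, RSAD2 and XAF1 had no match and PARP12 had 1. For some genes the RefSeq start lay apart from the start in the deposited tables (−5652 bases for SP110, 599 for XAF1). A window without a match can therefore miss the start of the deposited model.

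Sequencing depth was similar in all libraries, from 71498790 to 76566375 counts. CPM here means counts divided by TMM-scaled library size, and the deposited FPKM are used where genes are compared with each other. By the quasi-likelihood test of edgeR, adjusted over all genes by Benjamini-Hochberg, 131 of 21679 genes rose (0.604%) and 193 fell (0.89%). With scaling to total counts these were 246 and 138. The plasmid's own gene, STING1, was at 36.2, 37.1 and 31.3 CPM in control libraries 1, 2 and 3 and at 56.3, 54.7 and 47.3 CPM in STING libraries 1, 2 and 3. It rose 1.51-fold (log2 fold change 0.60, SE 0.0777, edgeR adjusted p = 0.00221), and counts do not separate the plasmid from the chromosomal gene. Astrocyte and glioma markers summed to 4090 to 4240 CPM in control and 3820 to 3970 CPM in STING libraries, with S100B under 1 CPM in every library. GFAP, the astrocyte intermediate filament, fell from 39.1 ± 3.98 to 21.5 ± 3.88 CPM (SD, n = 3 per group; edgeR adjusted p = 0.033). That call was lost without the filter on low counts (0.081), with a correction for GC content and length (0.0627) and on FPKM (0.118 and 0.124). It was also lost without control library 1 (0.0773), control library 3 (0.0987) or STING library 1 (0.107). The call remained with DESeq2 (4.49e-11), limma-voom (0.014) and a stricter filter (0.0378), and in the 3 other fits that left out a library. The 8 leukocyte markers summed to 25.4 to 30.8 CPM in control and 23.9 to 39.4 CPM in STING libraries, and CD3E, AIF1 and ITGAM were under 1 CPM in every library. The neuronal markers RBFOX3 and STMN2 and the oligodendrocyte marker MAG were also under 1 CPM in every library. So were the endothelial marker CDH5 and the epithelial markers EPCAM and CDH1. Other genes of these lists were higher, with control means of 32.0 CPM for SYT1 (neuron), 19.45 for KDR (endothelial) and 41.9 for KRT18 (epithelial). The neuronal list summed to 33.2 to 35.4 CPM in control and 34.3 to 36.4 CPM in STING libraries. The endothelial list summed to 20.8 to 22.9 and 20.4 to 24.1 CPM, and the epithelial list to 46.5 to 54.1 and 41.1 to 47.2 CPM.

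With the control plasmid the interferon-stimulated genes were already abundant. IFI6, a mitochondrial protein that restrains apoptosis and flavivirus replication, was the highest at 1188, 1125 and 1054 FPKM in the 3 control libraries. ISG15, the ubiquitin-like modifier, followed at 471, 460 and 453 FPKM, LGALS3BP, a secreted galectin-binding glycoprotein, at 361, 351 and 330 FPKM, and BST2 (tetherin), which holds budding virions at the cell surface, at 302, 288 and 262 FPKM. These 4 ranges did not overlap. Next came IFITM1 and IFITM3, membrane proteins that block virus entry, with control means of 211 ± 19.1 and 209 ± 10.8 FPKM (SD, n = 3), which did not differ beyond their spread. Of the 48 genes 43 were at or above the median of tested genes in control FPKM, 29 at or above the 90th percentile and 19 at or above the 95th.

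At the other end, 3 genes were under 1 CPM on average. IRF7, the transcription factor that amplifies interferon production, had 0.34, 0.32 and 0.24 FPKM in the control libraries. EPSTI1, a gene found through epithelial and stromal interaction, had 0.12, 0.18 and 0.08 FPKM, and ZBP1, a sensor of left-handed nucleic acid, had 0.04, 0.07 and 0.06 FPKM. Deposited FPKM have 2 decimals, so the values of ZBP1 are coarse. The low level of IRF7 stood beside 34.8 ± 2.51 FPKM for STAT2 and 13.5 ± 2.53 FPKM for IRF9 (SD, n = 3).

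**Figure D1:**
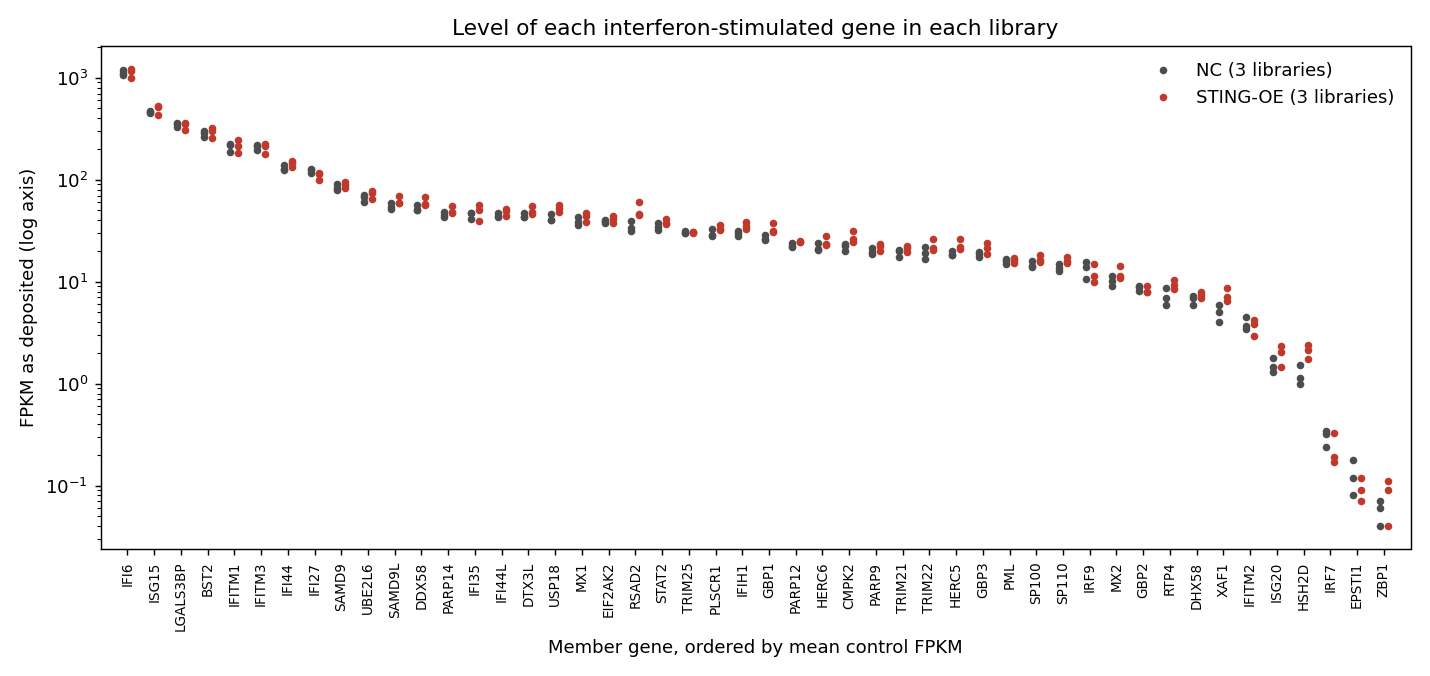
Deposited FPKM (log axis) of each of the 48 genes in the 3 control (NC, dark) and 3 STING plasmid (STING-OE, red) libraries, with genes ordered by mean control FPKM and 1 point per library. Levels span from 1123 FPKM for IFI6 to 0.0567 FPKM for ZBP1 in control means, and the spread between groups is small beside the spread between genes.

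With the STING plasmid 2 of the 48 genes passed the test as higher, HSH2D and USP18, against 0.604% of all tested genes, and 46 did not pass. None passed as lower in edgeR, against 0.89% of all tested genes. At an unadjusted p under 0.05 there were 17 higher genes (7.17% of all tested genes) and 1 lower, IFI27 (7.2%). DESeq2 called 9 higher (3.2% of the genes it tested) and 1 lower, IFI27, against 4.21% of those genes as lower, while limma-voom called 0 higher (0.268%) and 0 lower (0.364%). The 9 genes that DESeq2 called higher were HSH2D, USP18, IFIH1, SP110, GBP1, HERC5, CMPK2, RSAD2 and DDX58. The estimates were small and mostly on 1 side. The log2 fold change was positive for 38 of the 48 genes (50.2% of all tested genes), with a median of 0.12, against 0.001 over all tested genes. The groups did not overlap for 10 genes with all STING libraries above all control libraries (10.1% of all tested genes) and for 1, IFI27, below (9.73%). Shares were larger among the 10303 tested genes that averaged at least 10 CPM. Of those, 109 passed as higher and 182 as lower in edgeR. At an unadjusted p under 0.05 they gave 1192 higher and 1170 lower genes. Their groups did not overlap for 1483 genes above and 1339 below. In bulk RNA a change in the number of cells that express a gene and a change in its RNA per cell cannot be told apart.

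The precision of these estimates bounds the size of the changes among these libraries, whose spread could be technical. Each interval is for 1 gene, and the genes shift together within a library, so the 48 intervals are not independent of each other. The approximate 95% interval of the log2 fold change lay within a 1.5-fold change in either direction for 38 of the 48 genes and within 2-fold for 43. An upper limit at or above 2-fold was seen for 3 genes, HSH2D, XAF1 and ZBP1.

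**Figure D2:**
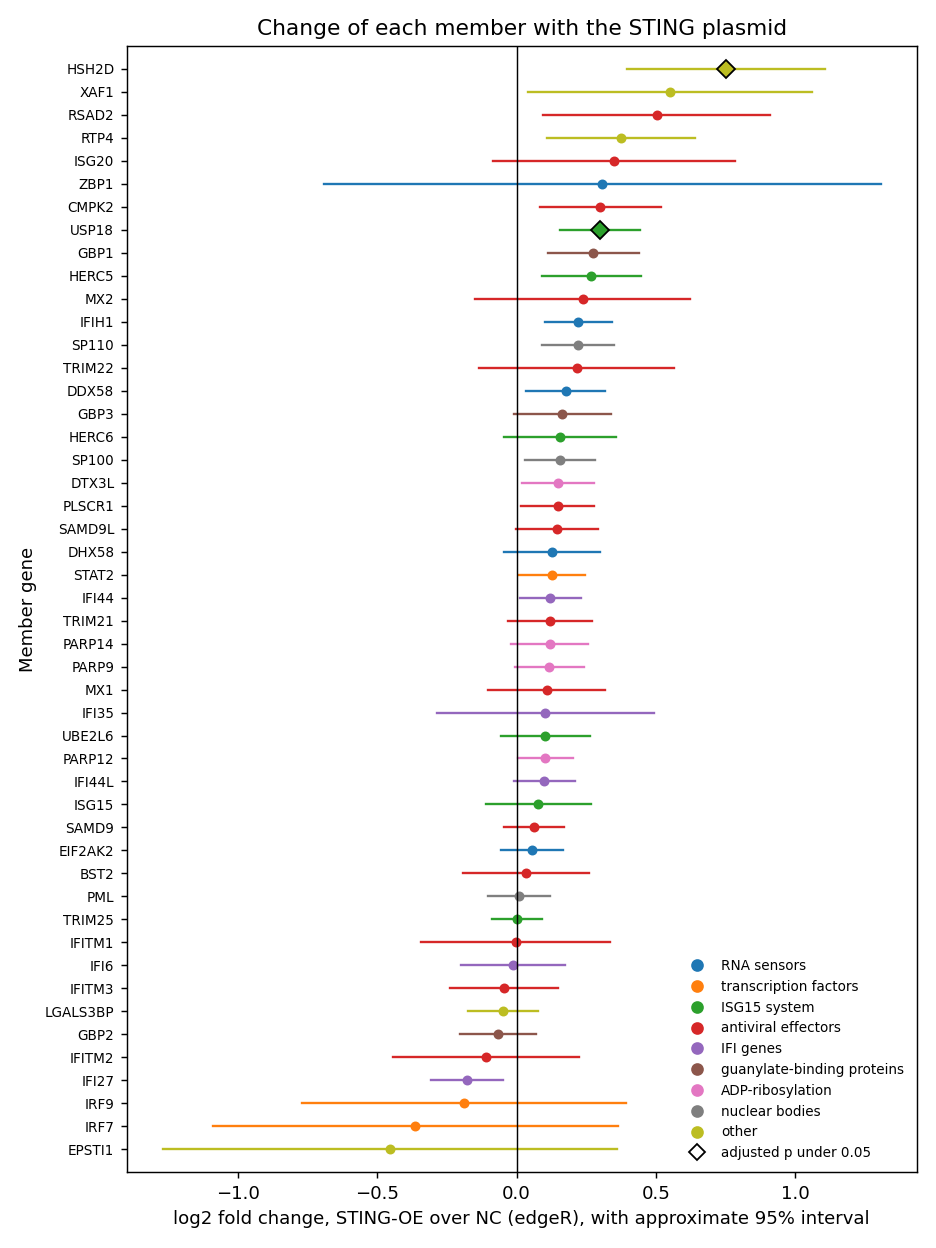
Log2 fold change of each gene, STING plasmid over control plasmid, with its approximate 95% interval from edgeR, coloured by role and ordered by size. Diamonds mark HSH2D (0.75) and USP18 (0.30), which passed at an adjusted p under 0.05, and most other intervals lie close to 0.

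Among the sensors of foreign RNA, 0 of 5 passed the test in edgeR and 5 of 5 had a positive estimate (median log2 fold change 0.18). IFIH1 encodes MDA5, which recognises long double-stranded RNA (chromosome 2, 162267074 to 162318684). It was at 174, 166 and 157 CPM in control libraries 1, 2 and 3 and at 181, 190 and 210 CPM in STING libraries 1, 2 and 3. The groups did not overlap, although the lowest STING library was only 1.04 times the highest control library. The log2 fold change of IFIH1 was 0.22 (SE 0.0565, edgeR adjusted p = 0.0645). It passed with scaling to total counts (adjusted p = 0.0316), without the filter on low counts (0.0315), with a stricter filter (0.0181), with DESeq2 (0.00386) and without STING library 1 (0.025). DDX58 encodes RIG-I, which binds RNA with a triphosphate end. It was at 283, 260 and 257 CPM in control and 282, 287 and 336 CPM in STING libraries, a log2 fold change of 0.18 (edgeR adjusted p = 0.222; DESeq2 0.0485). Control library 1 lay above STING library 1, so the groups overlapped. DHX58, which encodes the regulator LGP2 (0.13), EIF2AK2, which encodes the translation-blocking kinase PKR (0.06), and ZBP1 (0.31) also had estimates whose groups overlapped.

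The transcription factors gave 0 of 3 passing genes in edgeR, with 1 of 3 positive (median −0.19). STAT2, a subunit of the complex that binds the ISRE, was at 249, 235 and 220 CPM in control and 256, 240 and 274 CPM in STING libraries. Its log2 fold change was 0.13 (edgeR adjusted p = 0.305), and the groups overlapped. IRF9, the DNA-binding subunit of that complex, was at 60.5, 42.2 and 55.2 CPM in control and 38.7, 56.5 and 43.5 CPM in STING libraries. Its model shares 1838 of 3794 exon bases with AL136295 (ENSG00000259529) on the same strand, so the count of either depends on how shared reads were assigned. AL136295 was high where IRF9 was low, and their sum was 115 ± 15.9 CPM in control and 112 ± 10.7 CPM in STING libraries (SD, n = 3). IRF7 was counted in all libraries at 0.504 to 0.989 CPM, and its log2 fold change of −0.36 (edgeR adjusted p = 0.721) had an approximate 95% interval of −1.09 to 0.36.

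In the ISG15 system 1 of 6 genes, USP18, passed as higher, and 6 of 6 had a positive estimate (median 0.13), although that of TRIM25 was 0.0011 and was negative with RLE and upper-quartile scaling. USP18 removes ISG15 from its targets and dampens signalling at the interferon receptor (chromosome 22, 18150170 to 18177397). It was at 93.0, 82.2 and 82.5 CPM in control libraries 1, 2 and 3 and at 107, 95.9 and 114 CPM in STING libraries 1, 2 and 3. All STING libraries lay above all control libraries, by 1.03 times at the nearest. USP18 rose 1.23-fold (log2 fold change 0.30, SE 0.0667, edgeR adjusted p = 0.044). The call was lost in 5 of the 6 fits that left out a library. Without control library 1, 2 or 3 the adjusted p was 0.0578, 0.196 or 0.181, and without STING library 1 or 3 it was 0.124 or 0.14. It was also lost with limma-voom (0.0992), on deposited FPKM (0.175 and 0.182) and with a correction for GC content and length (0.0538). Of the 50-base words of USP18 transcripts 23.0% also occur in USP41, a near-identical copy. USP41 was at 0.79 ± 0.877 CPM in control and 2.21 ± 2.0 CPM in STING libraries (SD, n = 3), and the sum of both genes, 86.7 ± 5.76 against 107.8 ± 11.1 CPM, did not overlap between groups.

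The ligases and the conjugating enzyme of ISG15 had smaller estimates. HERC5, the main ISG15 ligase, was at 103, 94.6 and 95.4 CPM in control and 107, 111 and 135 CPM in STING libraries. Its groups did not overlap, and STING library 3 stood highest. The log2 fold change was 0.27 (SE 0.0802, edgeR adjusted p = 0.147; DESeq2 0.00775). HERC6, a related ligase (0.16), UBE2L6, the conjugating enzyme (0.10), and TRIM25, a ligase that also acts on RIG-I (0.0011), had overlapping groups. TRIM25 was the steadiest of these, at 319, 312 and 310 CPM in control and 320, 306 and 317 CPM in STING libraries. ISG15 itself was at 439, 437 and 431 CPM in control and 491, 394 and 496 CPM in STING libraries. STING library 2 lay below and STING libraries 1 and 3 above every control library, and the log2 fold change was 0.08 (edgeR adjusted p = 0.766).

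Among 14 antiviral effectors 0 passed in edgeR, 11 had a positive estimate and the median log2 fold change was 0.13. RSAD2 encodes viperin, which makes a chain-terminating nucleotide from CTP (chromosome 2, 6865806 to 6887053). It was at 202, 176 and 162 CPM in control and 230, 233 and 304 CPM in STING libraries. The groups did not overlap, but the STING libraries were spread widely, and the log2 fold change of 0.50 (SE 0.154) had an edgeR adjusted p of 0.256 (DESeq2 0.0391). CMPK2, a mitochondrial nucleotide kinase, lies next to RSAD2 in the opposite orientation (chromosome 2, 6840570 to 6865819), and the models share 14 bases. It was at 108, 106 and 93.9 CPM in control and 124, 112 and 144 CPM in STING libraries, again with no overlap (log2 fold change 0.30, edgeR adjusted p = 0.19; DESeq2 0.00336). The sum of RSAD2 and CMPK2 was 283 ± 27.1 CPM in control and 382 ± 57.2 CPM in STING libraries (SD, n = 3).

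PLSCR1, a phospholipid scramblase that restricts virus entry, was at 155, 135 and 135 CPM in control and 151, 151 and 168 CPM in STING libraries. Control library 1 lay above STING libraries 1 and 2 (log2 fold change 0.15, edgeR adjusted p = 0.273). BST2 was at 357, 348 and 317 CPM in control and 361, 300 and 385 CPM in STING libraries, with a log2 fold change of 0.03 that turned negative without control library 3 (−0.016) or without STING library 3 (−0.044). TRIM22, which restricts retroviruses, was at 139, 125 and 109 CPM in control and 131, 135 and 168 CPM in STING libraries, and its groups overlapped (log2 fold change 0.22, edgeR adjusted p = 0.588). Estimates for the other effectors ran from 0.06 for SAMD9 to 0.35 for ISG20, an exonuclease that degrades viral RNA. Between them were the dynamin-like GTPases MX1 (0.11) and MX2 (0.24), SAMD9L (0.15), which with SAMD9 represses translation in infected cells, and the antibody receptor TRIM21 (0.12). All of these had overlapping groups.

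The 3 IFITM genes had estimates near 0. IFITM1 was at 222, 229 and 194 CPM in control and 218, 181 and 245 CPM in STING libraries. IFITM3 was at 268, 270 and 248 CPM in control and 269, 219 and 276 CPM in STING libraries. IFITM2 was lower, at 6.10, 7.67 and 5.87 CPM in control and 6.42, 4.79 and 6.99 CPM in STING libraries. STING library 2 was the lowest of the 6 for all 3 genes. The log2 fold changes of IFITM1, IFITM3 and IFITM2 were −0.0030, −0.05 and −0.11, and each was positive without STING library 2 (0.11, 0.05 and 0.04). Between 32.0% and 35.2% of the 50-base words of these genes occur in other genes, so the assignment of their reads is uncertain. IFITM1 shared most with IFITM2 (29.4%) and IFITM2 with IFITM1 (21.6%), and their models share 351 exon bases on the same strand. IFITM3 shared most with AC136475.5 (17.7%).

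Of the genes named IFI, 0 of 5 passed in edgeR and 3 had a positive estimate (median 0.10). IFI27, a mitochondrial membrane protein that is strongly induced by interferon, was at 557, 574 and 530 CPM in control and 520, 438 and 510 CPM in STING libraries (chromosome 14, 94104836 to 94116698). Each STING library lay below each control library. The log2 fold change was −0.18 (SE 0.0599, edgeR adjusted p = 0.172), and DESeq2 called it lower (adjusted p = 0.0309). IFI6 was at 1076, 1040 and 974 CPM in control and 1067, 889 and 1109 CPM in STING libraries, so the groups overlapped (log2 fold change −0.012, edgeR adjusted p = 0.976, positive with scaling to total counts, on FPKM, with the GC and length correction and without control library 1 or STING library 2). IFI44 (0.12), IFI44L (0.10) and IFI35 (0.10) had overlapping groups. IFI44 and IFI44L are related neighbours that restrict RNA viruses.

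Guanylate-binding proteins are interferon-induced GTPases that attack the vacuoles of intracellular pathogens, and 0 of 3 passed in edgeR. GBP1 was at 149, 141 and 138 CPM in control and 161, 161 and 197 CPM in STING libraries (chromosome 1, 89052319 to 89065230). All STING libraries lay above all control libraries, with STING library 3 far above the others (log2 fold change 0.28, SE 0.0744, edgeR adjusted p = 0.109; DESeq2 0.00227). GBP2 was at 69.94, 69.96 and 63.6 CPM in control and 62.7, 60.5 and 71.2 CPM in STING libraries, a log2 fold change of −0.07 (edgeR adjusted p = 0.732). The estimate for GBP3 was 0.16, and neither GBP2 nor GBP3 had separate groups. Of the 50-base words of GBP1 9.62% and of GBP2 10.2% occur in other genes of the family or elsewhere.

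The ADP-ribosylation genes were close to each other, with log2 fold changes from 0.10 to 0.15, and 0 of 4 passed in edgeR. PARP9 and DTX3L form a complex that modifies histones and viral proteases and share 1 divergent promoter region. DTX3L was at 289, 270 and 270 CPM in control and 287, 293 and 340 CPM in STING libraries (log2 fold change 0.15, edgeR adjusted p = 0.264), and control library 1 lay above STING library 1. PARP9 (0.12) and PARP14, a mono-ADP-ribosyltransferase (0.12), also overlapped. PARP12, a related enzyme, had separate groups at 143, 136 and 132 CPM in control and 148, 145 and 150 CPM in STING libraries, although the lowest STING library was only 1.01 times the highest control library (log2 fold change 0.10, edgeR adjusted p = 0.319).

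The nuclear body genes gave 0 of 3 passing in edgeR and 3 of 3 positive. SP110, a chromatin-binding nuclear body protein, was at 141, 133 and 123 CPM in control and 147, 149 and 167 CPM in STING libraries (chromosome 2, 230165186 to 230219984). Its groups did not overlap (log2 fold change 0.22, SE 0.0608, edgeR adjusted p = 0.0906). It passed with scaling to total counts (0.0418), with a stricter filter on low counts (0.0301) and with DESeq2 (0.00913). SP140, a related gene on the opposite strand, shares 170 exon bases with it, and their sum was 138 ± 10.1 CPM in control and 162 ± 12.1 CPM in STING libraries (SD, n = 3), with no overlap. SP100, a constant part of these bodies, was at 241, 223 and 217 CPM in control and 239, 243 and 276 CPM in STING libraries, and the groups overlapped (log2 fold change 0.16, edgeR adjusted p = 0.216). PML, which organises the bodies, had an estimate of 0.01, with an approximate 95% interval of −0.10 to 0.12.

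HSH2D had the largest estimate of the 48 genes. It encodes a signalling adaptor with an SH2 domain known from blood cells (chromosome 19, 16134028 to 16158570). The level was 5.65, 4.29 and 3.73 CPM in control libraries 1, 2 and 3 and 7.93, 6.34 and 8.78 CPM in STING libraries 1, 2 and 3. The lowest STING library was 1.12 times the highest control library. HSH2D rose 1.69-fold (log2 fold change 0.75, SE 0.167, edgeR adjusted p = 0.0371). The call remained without control library 1. Without control library 2 or 3 the adjusted p was 0.179 or 0.172, and without STING library 1, 2 or 3 it was 0.075, 0.0513 or 0.144. It was lost with limma-voom (0.0949) and on FPKM (0.174 and 0.179). HSH2D starts within the end of RAB8A, a Rab GTPase gene on the same strand, and they share 207 exon bases. RAB8A was at 133 ± 2.06 CPM in control and 129 ± 7.58 CPM in STING libraries, far above HSH2D, and the sum of both, 137 ± 2.67 against 136 ± 8.30 CPM (SD, n = 3), overlapped between groups. The part of shared reads in the change of HSH2D was not tested.

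XAF1, which counters the apoptosis inhibitor XIAP, was at 35.6, 42.9 and 29.5 CPM in control and 50.7, 45.3 and 62.3 CPM in STING libraries. Its groups did not overlap (log2 fold change 0.55, SE 0.194, edgeR adjusted p = 0.309). PRAL, on the opposite strand, shares 2535 exon bases with XAF1 and was at 7.77 ± 2.03 CPM in control and 14.6 ± 5.32 CPM in STING libraries. The sum of both was 43.8 ± 5.29 CPM in control and 67.4 ± 12.8 CPM in STING libraries (SD, n = 3), also with no overlap. RTP4, a chaperone of membrane receptors that also binds viral RNA, was at 13.9, 11.4 and 9.75 CPM in control and 15.1, 13.5 and 16.7 CPM in STING libraries. Control library 1 lay above STING library 2 (log2 fold change 0.37, edgeR adjusted p = 0.161). LGALS3BP was at 1327, 1319 and 1241 CPM in control and 1327, 1122 and 1307 CPM in STING libraries, with overlapping groups (log2 fold change −0.05, edgeR adjusted p = 0.798, positive with the GC and length correction and without STING library 2). EPSTI1 was at 0.463 to 0.96 CPM in control and 0.391 to 0.608 CPM in STING libraries.

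The 48 genes differed together between libraries of the same group. In control library 3, 42 of the 48 genes (87.5%) were at their lowest among the 3 control libraries, against 33.5% of all tested genes, and 37 were at their highest in control library 1. In STING library 3, 41 of the 48 (85.4%) were at their highest among the 3 STING libraries, against 31.3% of all tested genes. Over all 6 libraries STING library 3 was the highest for 40 genes and control library 3 the lowest for 28, against 15.8% and 15.1% of all tested genes. STING library 2 was the lowest of the 6 for 13 genes (19.6% of all tested genes). The median log2 ratio of control library 1 to control library 3 was 0.15, and that of STING library 3 to STING library 2 was 0.23. The median difference between the groups, 0.12, was smaller than both. It rests on 3 libraries a group, whereas each ratio sets the highest library of a group against its lowest, so the sizes cannot be compared directly. These ratios were 0.0051 and 0.0017 over all tested genes.

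Relative to the control mean, the median log2 level of the 48 genes was 0.07, 0.0022 and −0.08 in control libraries 1, 2 and 3 and 0.08, 0.05 and 0.24 in STING libraries 1, 2 and 3. Control library 1 thus lay between STING libraries 2 and 1. Together the genes took 1.112 ± 0.0486% of counts in control and 1.198 ± 0.0875% in STING libraries (SD, n = 3), and these groups overlapped. Without STING library 3 the median log2 fold change was 0.06, without control library 3 it was 0.08 and without STING library 2 it was 0.18. Among STING libraries STING1 was lowest in library 3 (47.3 CPM), where most of the 48 genes were highest. Among control libraries it was at 36.2, 37.1 and 31.3 CPM in libraries 1, 2 and 3. It was thus lowest in control library 3, like 42 of the 48 genes. The relation of STING1 to the pattern was not tested. CD68 is a lysosomal protein that made up most of the summed leukocyte markers. It was at 24.6, 19.5 and 17.3 CPM in control libraries 1, 2 and 3 and at 34.3, 18.7 and 32.4 CPM in STING libraries 1, 2 and 3. Among control libraries it was highest in library 1 and lowest in library 3, like most of the 48 genes. Among STING libraries it was lowest in library 2, like 30 of the 48, and highest in library 1, like 5 of the 48. The other leukocyte markers over 1 CPM in some library differed from CD68. PTPRC was at 2.12, 7.64 and 4.66 CPM in control libraries 1, 2 and 3 and at 0.937, 2.47 and 3.08 CPM in STING libraries 1, 2 and 3. CD14 was highest in control library 2 and lowest in control library 3. CSF1R was highest in control library 1 and lowest in control library 2. PTPRC, CD14 and CSF1R were each highest in STING library 3, like most of the 48 genes. The part of CD68 and these markers in the pattern was not tested.

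**Figure D3:**
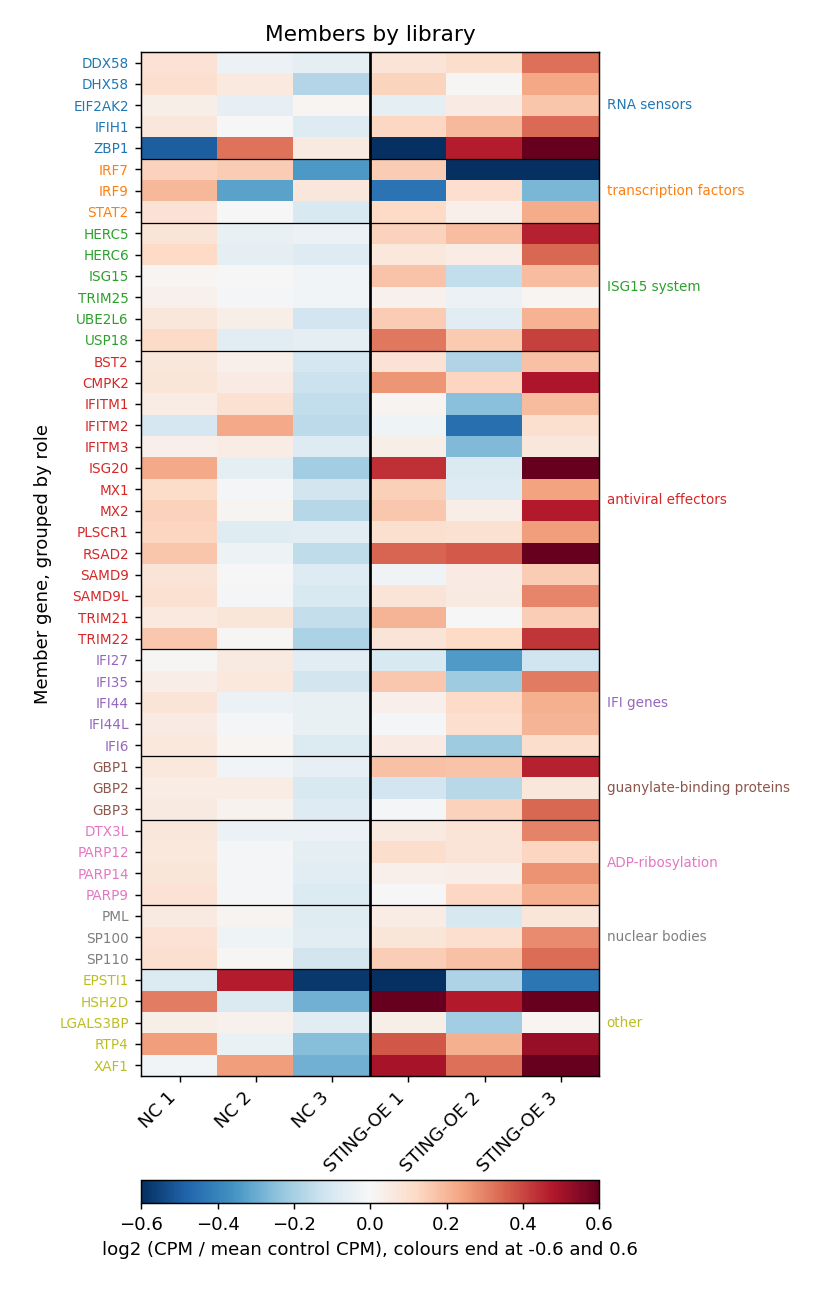
Log2 ratio of each gene's CPM in each library to its mean control CPM, with genes in rows grouped by role, libraries in columns, red above and blue below the control mean, and colours ending at −0.6 and 0.6. The column of STING library 3 is red for nearly all genes and that of control library 3 is mostly pale blue, while STING library 2 is mixed.

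The spread of these genes within a group was larger than that of other well counted genes. Their median coefficient of variation was 6.30% in control and 10.3% in STING libraries, against 3.84% and 5.25% for the 10303 tested genes that averaged at least 10 CPM. The median standard error of the log2 fold change was 0.0767 against 0.0606 for those genes.

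Libraries also differed in how counts depended on the GC content of transcripts. Relative to the control mean, the log2 level changed by −0.10 and −0.07 per 10% GC in STING libraries 2 and 3 and by −0.013 to 0.017 in the other 4. Control libraries were set against their own mean, so their slopes lie around 0 by construction. The genes were split at the median GC content of tested genes, a split chosen after values were seen. For the 25 genes at or under that median the median log2 fold change was 0.15, with 23 positive, and for the 23 over it the median was 0.08, with 15 positive. Over all tested genes the medians were 0.04 and −0.04. After trends with GC content and length were removed, the medians of the 25 and 23 genes were 0.11 and 0.13, and 42 of the 48 estimates were positive with a median of 0.11. HSH2D was the only gene of the 48 that passed after this correction, against 0.77% of all tested genes as higher and 1.23% as lower.

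**Figure D4:**
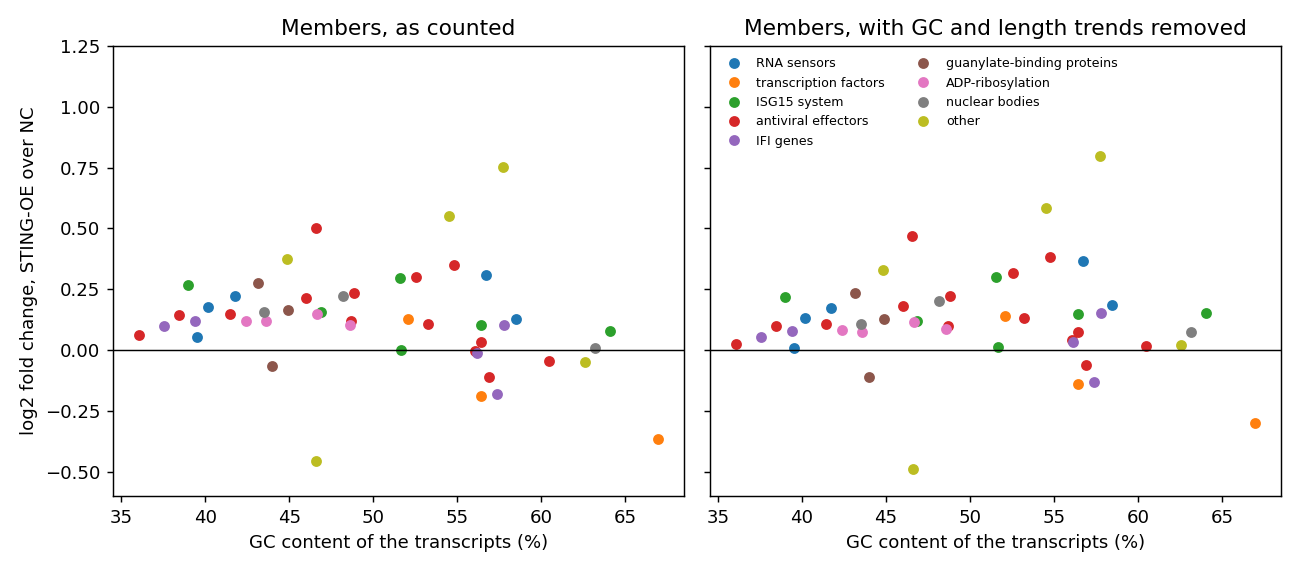
Log2 fold change of each gene, STING plasmid over control plasmid, against the GC content of its transcripts in percent, as counted (left) and after trends with GC content and length were removed (right), with 1 point per gene coloured by role. On the left 15 of the 23 genes with GC content over the median lie above 0, and 42 of all 48 do on the right.

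Other genes of the interferon pathway were read from lists. Of the IFIT and OAS families 0 of 8 tested genes passed in edgeR, 3 were higher and 0 lower at an unadjusted p under 0.05, and all 8 estimates were positive (median 0.16). OASL, a regulator of RIG-I and cGAS, was at 78.1, 76.6 and 64.1 CPM in control and 98.5, 84.1 and 110 CPM in STING libraries (log2 fold change 0.42, edgeR adjusted p = 0.201), and its groups did not overlap. IFIT2, which binds viral RNA, had a log2 fold change of 0.42 (edgeR adjusted p = 0.268) and IFIT5 of 0.11 (0.34). For all 8 genes control library 3 was the lowest control library and STING library 3 the highest STING library.

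Of 19 tested genes for interferons, their receptors, kinases and regulators 0 passed in edgeR, with 1 higher and 1 lower at an unadjusted p under 0.05, 7 estimates positive and a median of −0.04. IFNB1, the interferon gene downstream of IRF3, was at 0.694, 0.466 and 1.06 CPM in control and 0.573, 0.66 and 0.895 CPM in STING libraries. These overlapped (log2 fold change −0.06, SE 0.365, edgeR adjusted p = 0.973), and the sign turned without control library 3 (0.29) or STING library 1 (0.07). IRF1, an interferon-induced transcription factor, had a log2 fold change of 0.11 (edgeR adjusted p = 0.397), and JAK2, a receptor-bound kinase, of 0.13 (0.346). PTPN6, a phosphatase that restrains JAK signalling, went from 1.06 ± 0.48 to 0.421 ± 0.166 CPM (SD, n = 3; log2 fold change −1.33, edgeR adjusted p = 0.116).

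Among 8 genes that sense cytosolic DNA and RNA or relay the signal, STING1 rose and none fell in edgeR, with 2 lower at an unadjusted p under 0.05. These were IKBKE, a kinase related to TBK1 (log2 fold change −0.32, edgeR adjusted p = 0.0679), and MAVS, the mitochondrial adaptor of RIG-I and MDA5 (−0.12, 0.176). For both, all STING libraries lay below all control libraries. IKBKE passed as lower with DESeq2 (0.0158), with a stricter filter (0.0161), with no filter (0.0248) and without STING library 1 (0.0344), and MAVS passed with DESeq2 (0.0436).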

How the data were processed

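Total RNA from U251 cells was extracted with Trizol and made into libraries with an Illumina TruSeq RNA kit, per the labels' protocols. Bowtie 0.12.2 was used, per the submitters' processing notes. How reads were counted, on which annotation and build and with which strand setting, is not given in the sources used here. Raw read counts and FPKM values by the authors stand side by side for each Ensembl gene, with its coordinates, per the file headers. Library totals of the deposited counts were 71498790 to 76566375, and 3 counts, taken as the floor of detection, correspond to 0.0388 to 0.0424 CPM (counting error only). GENCODE v29 held 40903 of the 42307 identifiers, 89.7% of them with the same start or end (tolerance 1 base), and coordinates are therefore called GRCh38.

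The main test, on counts of 3 STING-OE and 3 NC libraries, was that of edgeR 4.0.16 under R 4.3.3 (genes kept by filterByExpr, TMM, robust quasi-likelihood fit, two-sided test, Benjamini-Hochberg adjustment over 21679 genes, threshold 0.05), without covariates. A log2 fold change is STING-OE over NC, its SE is the absolute value divided by the square root of F, and intervals are approximate 95% intervals from that SE. An exact permutation test of 3 against 3 libraries cannot go below p = 0.1 and was not used. The procedure was tested on simulated data, where it recovered 66% of the genes given a 1.5-fold change. Of the genes given the smallest change tried, which was under 1.5-fold, it recovered 26%. The chi-square per gene between replicates was 11.7 to 23.1, so no library was counted as a duplicate.

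Alternatives tried were scaling by RLE, by upper quartile and by total counts, no filter and a stricter filter (1 CPM in 3 libraries), DESeq2 1.42.0, limma-voom and limma on log2(FPKM + 0.1) and log2(FPKM + 1) (limma 3.58.1, genes with a mean FPKM of at least 0.1), the replicate number as a block, a loess correction for GC content and length of GENCODE transcripts, and leaving out each library. Every gene of the 48 is named. Values in every library are given for the 14 with the smallest p, the 4 with the highest FPKM, lower genes with an unadjusted p under 0.05, genes under the filter or with at least 5% of their 50-base words in other genes, and the smallest p of each role, and for a few others chosen after their values were seen (PARP12 and the levels of IRF7, EPSTI1 and ZBP1). Outside the 48, STING1, IFNB1, IRF1 and the 3 smallest p of each list are named, with GFAP added later. Some values that this rule or the marker lists call for are not reported here. The members, lists and roles were chosen with earlier results of these data known.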

Additional observations from a re-analysis of the deposited data

How the results depend on the processing

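Of the 48 genes, 2 passed as higher in the edgeR fit described above (0.604% of all tested genes, a share given in brackets for each setting). The count was 4 with total-count scaling (1.13%), 4 with a stricter filter (1.83%) and 9 with DESeq2 (3.2%). It was 1 with the GC and length correction (0.77%) and 0 with limma-voom (0.268%) and FPKM at either pseudocount (0.0416% and 0.0462%). The count was also 0 with the replicate block (0.254%) and with that block and the correction together (0.134%). It ran from 0 to 1 when a library was left out (0.15% to 1.15%). It was 2 under RLE scaling (0.567%) and upper-quartile scaling (0.554%) and 3 with no filter (0.47%). Lower genes were 1 with DESeq2 (4.21%) and 0 elsewhere (0.00925% to 2.75%). The median log2 fold change of the 48 genes stayed positive throughout, from 0.11 to 0.15 over the other settings and from 0.06 to 0.18 with a library left out. Of all genes 324 changed, against 686 with the stricter filter, 922 with DESeq2, 137 with limma-voom, 11 and 12 on FPKM, 120 with the block, 68 with block and correction, and 60 to 741 with a library left out. STING1 missed the threshold on FPKM (0.61 and 0.55, adjusted p = 0.106 for both). Some estimates near 0 turned sign. IFI6 was 0.018 with total-count scaling, 0.0039 and 0.0039 on FPKM, 0.032 with the correction, 0.028 with correction and block, and −0.077 to 0.079 with a library left out. IFITM1 was 0.026 with total-count scaling, 0.011 and 0.011 on FPKM, 0.042 with the correction, 0.034 with correction and block, and −0.11 to 0.11 with a library left out. IFITM3 was 0.017 with the correction and 0.012 with correction and block, and LGALS3BP was 0.021 and 0.019. With a library left out IFITM3 ran from −0.11 to 0.053, LGALS3BP from −0.094 to 0.024, IFITM2 from −0.23 to 0.035, BST2 from −0.044 to 0.13 and IFNB1 from −0.31 to 0.29. TRIM25 was −0.0017 with RLE and −0.0087 with upper-quartile scaling, −0.0008 with either filter and −0.012 to 0.020 with a library left out. IFNB1 was 0.017 on FPKM with pseudocount 0.1. The cause was not tested. Replicate numbers occur in both groups, but no label ties them to a shared culture. Deviations of same-numbered libraries correlated weakly, at 0.055, 0.023 and 0.017. Whether these libraries share more than a number is not known. With the block the adjusted p was 0.0659 for HSH2D and 0.0609 for USP18, and each library correlated best with its own number except STING library 3. With 3 libraries a group, small changes of genes under 1 CPM (EPSTI1, IRF7 and ZBP1) were not detectable at this depth. The limit is not confined to these genes. In simulated data only 26% of the genes given the smallest change tried were recovered. A gene of the 48 that did not pass is therefore not shown to be unchanged.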
